A study of Mus musculus with 18 samples.

Results

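Immediate early genes were studied in the liver as a set of 10 genes, taken by their symbols out of the 19057 lines of the table, a rule that used no measured value. They were Fos, Jun, Junb, Atf3, Egr1, Myc, Ier2, Ier3, Btg2 and Zfp36. Their RNA was read in 18 livers of male ICR mice, an outbred stock, in 6 groups of 3 livers, all of 10 weeks of age by the labels. The Con mice had the regular diet and saline. The HFD mice had a high fat diet and saline. The Con-FMT mice had the high fat diet and, by mouth, the pooled small intestinal microbiota of control donors, and the A10-FMT mice the same diet with the pooled microbiota of donors dosed with alginate oligosaccharide (AOS, cut from an algal polysaccharide) at 10 mg/kg. The AOS livers were labelled with AOS at 10 mg/kg and no high fat diet, and the HFD+AOS livers with the high fat diet and AOS at 10 mg/kg. How these last groups were dosed is not given in the sources used here.

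Immediate early genes are switched on within minutes of a stimulus by factors already present in the cell, without new protein synthesis, and their short-lived RNA falls again soon after. Growth factor receptors and MAP kinases act on the serum response factor and its partners, and cAMP signalling on CREB. Many of the genes encode transcription factors, and others switch the response off again by degrading RNA or stopping growth. In the liver the genes are known to rise after partial hepatectomy and with inflammatory cytokines.

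The stretches before the start sites of 3 of the genes are shown because a motif searched for was found in them and in none of the other 4 that had an entry. They are the 250 bases before the start in RefSeq on GRCm38.p6, and 7 of the 10 genes had an entry. Egr1, Ier2 and Myc had none. In the lines that follow, 5′ to 3′ on the strand of the gene, capitals mark the motifs found. Fos lies at chr12:85473640-85473889 on the plus strand, Zfp36 at chr7:28379229-28379478 on the minus strand and Btg2 at chr1:134079156-134079405 on the minus strand.
Fos: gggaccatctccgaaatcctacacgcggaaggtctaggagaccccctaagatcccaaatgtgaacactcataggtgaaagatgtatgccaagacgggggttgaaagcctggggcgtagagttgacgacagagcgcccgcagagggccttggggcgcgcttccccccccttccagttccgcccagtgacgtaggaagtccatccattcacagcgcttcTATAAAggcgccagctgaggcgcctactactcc
Zfp36: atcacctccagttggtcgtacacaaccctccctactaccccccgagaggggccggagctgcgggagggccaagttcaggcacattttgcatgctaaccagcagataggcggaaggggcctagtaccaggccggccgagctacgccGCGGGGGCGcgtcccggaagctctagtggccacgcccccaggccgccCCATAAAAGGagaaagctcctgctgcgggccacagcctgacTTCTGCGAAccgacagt
Btg2: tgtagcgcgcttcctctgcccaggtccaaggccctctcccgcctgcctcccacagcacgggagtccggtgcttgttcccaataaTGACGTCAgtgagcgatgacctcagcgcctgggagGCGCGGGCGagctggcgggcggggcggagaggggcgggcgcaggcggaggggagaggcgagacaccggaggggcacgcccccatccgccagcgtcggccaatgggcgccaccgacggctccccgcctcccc
In Fos the capitals are the TATA box (TATAAA), which began 33 bases before the start and which 12.4% of the 32851 promoters of this length held. In Zfp36 they are, in the order of the line, an EGR motif (GCGNGGGCG, in 4.70% of promoters), a CArG box, the site of the serum response factor (1.47%), and a STAT motif (TTCNNNGAA, 7.02%). In Btg2 they are a CRE, the site of CREB (TGACGTCA, 1.55%), and an EGR motif. Both strands were searched, also for the AP-1 motif (TGANTCA, 6.75%) and the E-box (CACGTG, 6.02%), which none of the 7 stretches held. Jun, Junb, Ier3 and Atf3 had no match to these letters in this window, which says nothing of the factors themselves.

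By the median over the 18 livers, Zfp36 had the highest level of the set with 46.5 RPKM (RPKM, the unit by the study's methods, is the read count scaled to the length of the gene and to the reads of the library). Ier2 followed with 20.0 and Junb with 10.2, and Egr1 had 5.22. Myc had 1.42, Fos 0.785, Atf3 0.740 and Ier3 0.525 RPKM, so that these genes were at a low level in most livers. In whole liver, more cells that express a gene and more of its RNA in each cell cannot be told apart. The ratio of the highest liver to the lowest had a different order. It was 81.6 for Egr1, 66.6 for Fos, 27.1 for Myc and 18.3 for Atf3, against 2.87 for Zfp36 and 2.66 for Ier2.

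Fos, which pairs with the Jun proteins to form the AP-1 factor, was at 0.80, 1.83 and 1.72 RPKM in the Con livers, 0.63, 0.52 and 0.43 in AOS, and 1.23, 0.72 and 28.6 in HFD. It was at 1.42, 0.76 and 3.38 in HFD+AOS, 0.51, 24.9 and 1.39 in Con-FMT, and 0.56, 0.43 and 0.77 in A10-FMT. The third HFD liver and the second Con-FMT liver stood far above all others, while the other livers of those groups lay in the range of Con and A10-FMT. The AOS livers lay wholly below the Con livers. Jun, the partner of Fos, was at 6.83, 6.86 and 21.3 RPKM in HFD, 7.54, 38.5 and 7.95 in Con-FMT, and 15.3, 6.57 and 17.7 in HFD+AOS. It was at 5.10, 9.21 and 6.57 in Con, 5.61, 4.11 and 4.42 in AOS, and 3.65, 6.01 and 8.13 in A10-FMT. The same pair of livers was highest, and 2 of the 3 HFD+AOS livers came next.

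Junb, an AP-1 subunit that is weaker than Jun as an activator, was at 29.8, 21.7 and 16.6 RPKM in HFD+AOS, against 10.3, 9.21 and 22.1 in HFD. It was at 9.24, 7.70 and 8.12 in Con, 10.7, 10.7 and 10.2 in AOS, 6.45, 25.2 and 8.45 in Con-FMT, and 21.2, 7.01 and 7.35 in A10-FMT. High values occurred in 4 groups, and those of HFD+AOS were all above every Con and AOS liver. Atf3, a stress-induced factor of the same protein class, was at 0.79, 0.93 and 7.13 RPKM in HFD and at 0.77, 3.03 and 0.48 in Con-FMT. It was at 0.44, 0.39 and 1.57 in HFD+AOS and between 0.52 and 0.90 in every liver of Con, AOS and A10-FMT. Atf3 thus exceeded 1 RPKM in 3 livers alone, the fewest that let a gene be tested.

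**Figure D1:**
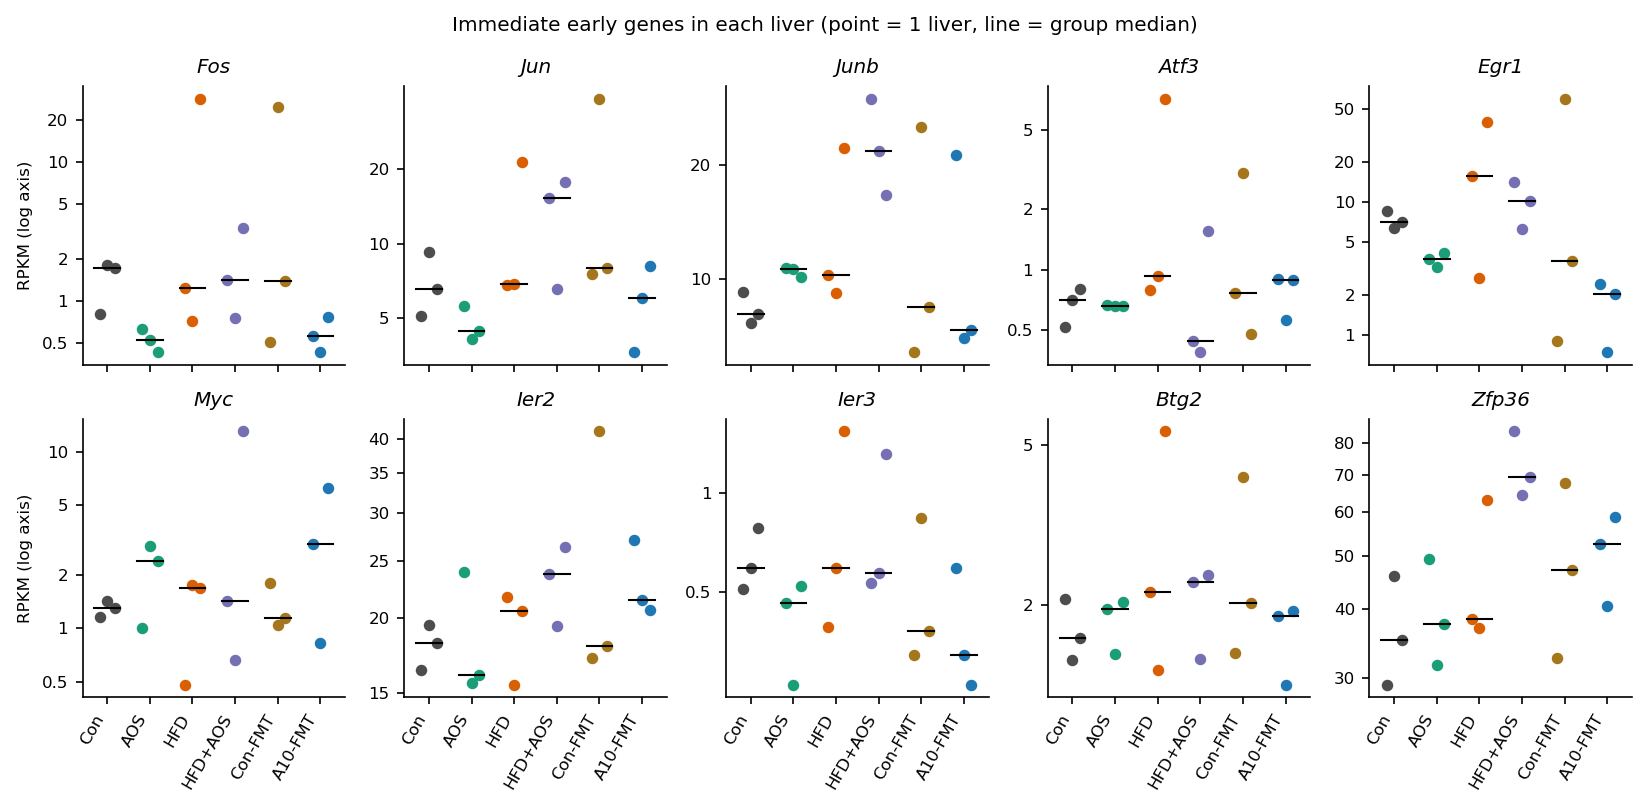
RPKM of each of the 10 immediate early genes on a log axis, with 1 point for each liver and a line at the median of its group, in 6 groups of 3 livers. The high point of HFD is the third liver for Fos (28.6 RPKM), Jun, Junb, Atf3 and Egr1, and the high point of Con-FMT is its second liver (24.9 RPKM for Fos).

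Egr1, a zinc finger factor induced by growth signals, was at 15.7, 2.66 and 39.98 RPKM in HFD, 0.90, 60.4 and 3.58 in Con-FMT, and 2.41, 0.74 and 2.04 in A10-FMT. It was at 8.5, 6.35 and 7.10 in Con, 3.70, 3.21 and 4.13 in AOS, and 14.1, 6.31 and 10.2 in HFD+AOS. The A10-FMT livers were all below every HFD liver, though the nearest values were 2.41 and 2.66, and the AOS livers were all below every Con liver. Myc, a driver of growth and ribosome production, did not follow the other factors. It was at 13.0 RPKM in the third HFD+AOS liver, beside 1.42 and 0.66 in the others of that group, and at 3.02, 0.83 and 6.23 in A10-FMT. In the third HFD liver it was at 1.69 and in the second Con-FMT liver at 1.04 RPKM, near the median of 1.42.

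Of the genes that end the response, Zfp36 encodes a protein that binds AU-rich RNA and has it degraded. It was at 83.8, 64.3 and 69.3 RPKM in HFD+AOS, 38.5, 37.0 and 63.1 in HFD, and 29.2, 45.9 and 35.2 in Con. It was at 49.3, 31.8 and 37.6 in AOS, 32.6, 67.6 and 47.1 in Con-FMT, and 52.4, 40.5 and 58.7 in A10-FMT. The HFD+AOS livers were wholly above the HFD livers, by 64.3 against 63.1 RPKM at the nearest. Btg2, which restrains growth and aids the removal of poly(A) tails, went from 1.27 to 2.38 RPKM in all livers but the third HFD liver (5.39) and the second Con-FMT liver (4.15).

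Ier2, a nuclear protein of the early response, was at 41.1 RPKM in the second Con-FMT liver and from 15.5 to 27.0 in the others. Ier3, a regulator of cell survival, reached 1 RPKM in 2 livers, the third HFD liver (1.54) and the third HFD+AOS liver (1.31), and so was not tested. The other 9 genes were.

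Several of the genes were high together in the same single livers. In the third HFD liver 7 of the 10 genes were at least 2-fold above the median of the other 17 livers, namely Fos (37.2-fold), Atf3 (10.0-fold), Egr1 (9.68-fold), Jun (3.12-fold), Ier3, Btg2 and Junb. In the second Con-FMT liver 7 were as well, with Fos at 32.3-fold, Egr1 at 14.6-fold, Jun at 5.64-fold and Atf3 at 4.27-fold, followed by Junb, Btg2 and Ier2. In the third HFD+AOS liver 6 were, with Myc at 9.15-fold and Fos at 4.39-fold. The first HFD+AOS liver had 3 such genes and every other liver from 0 to 2. Of all genes tested, from 0.324% to 1.26% were at least 2-fold above in a liver. These shares were 0.714% in the third HFD liver and 0.761% in the second Con-FMT liver, so that neither stood out by this count. The second Con-FMT liver was the highest of the 18 for 12.1% of tested genes, the largest such share of any liver. The third HFD liver was so for 7.02%, in a range from 1.47% with a median of 4.52%.

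**Figure D2:**
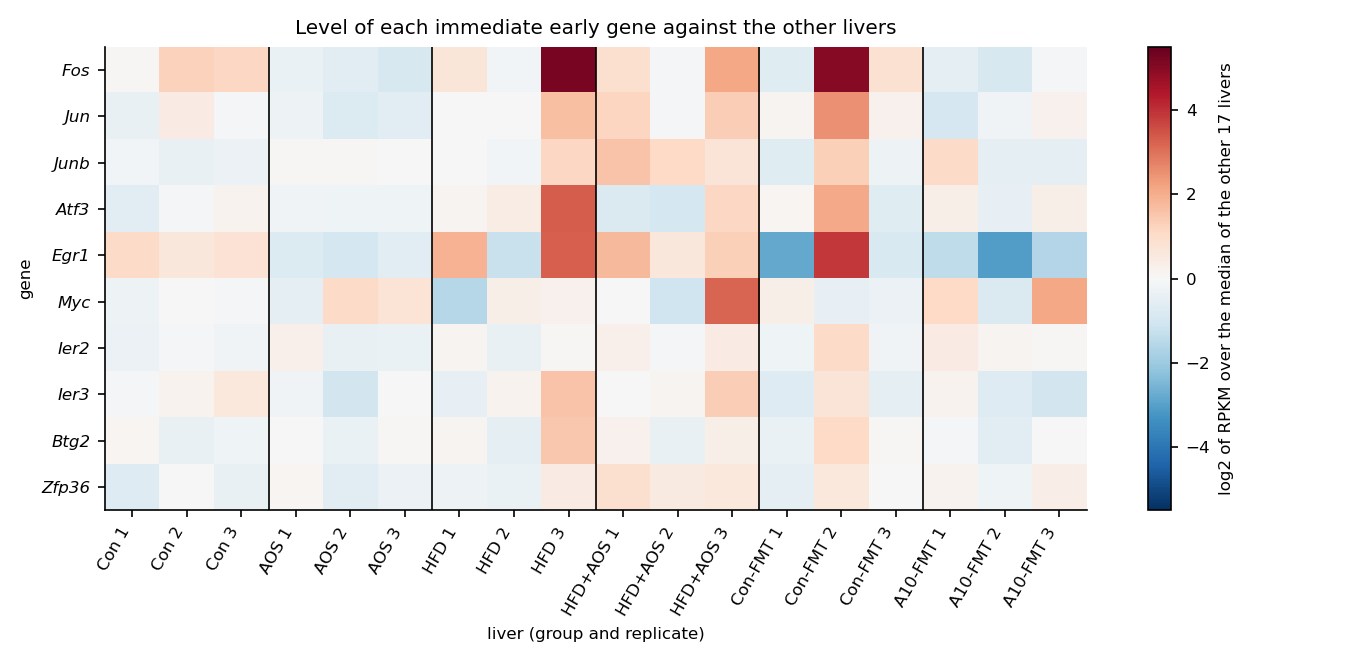
Level of each of the 10 genes in each of 18 livers as the log2 of its RPKM over the median of the other 17 livers, red above and blue below. The third HFD and the second Con-FMT liver show 7 red cells of at least 2-fold each, with Fos at 37.2-fold and 32.3-fold, and Myc is pale in both.

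Other genes that stood out in these livers were read beside them. Heat-shock genes were highest in the second Con-FMT liver for 7 of 7 listed chaperones, 6 of them at least 2-fold above the median of the other 17 livers. In the third HFD liver 2 of 7 were at least 2-fold above that median (Hspa1a and Hsph1). Below that cut, its Dnajb1 (23.4 RPKM), Hspa8 (774) and Hsp90aa1 (190) were exceeded in the second Con-FMT liver alone. Its Hspa1b and Hspb1 were exceeded in other livers too. The summed RPKM of 5 exocrine pancreas markers was 3.81 in the second Con-FMT liver and 3.09 in the third, where Fos was at 1.39 RPKM. It was from 0.28 to 1.33 in the others, with 0.32 in the third HFD liver. The summed RPKM of 6 Kupffer cell and macrophage markers was 97.4 in the third HFD liver, in a group from 43.2, and 42.8 in the second Con-FMT liver, in a group up to 61.2. It went from 56.3 to 88.4 in Con, 71.4 to 98.5 in AOS, 64.6 to 72.4 in HFD+AOS and 46.3 to 56.3 in A10-FMT. All of the 5 pancreas and 6 macrophage markers exceeded 0.1 RPKM in some liver. The part of these in the levels of the immediate early genes was not tested.

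The spread within groups, as the SD of log2(RPKM + 1) about the group means, was 1.33 for Fos and 1.32 for Egr1. These were the 99.9th percentiles of the 10507 genes tested. It was 0.843 for Myc, 0.736 for Jun, 0.632 for Atf3 and 0.607 for Junb, and for the 9 genes the percentiles went from 94.6 to 99.9. Among genes of the same level, in steps of 0.5 on the log2 scale, Fos and Egr1 had the widest spread of 1129 and 1227 genes. Without the third HFD liver and the second Con-FMT liver, the SD of Fos was 0.388 and that of Egr1 0.664, at the 95.9th and 98.95th percentiles, while that of Myc was 0.915. Leaving out these livers was chosen after their values were seen.

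**Figure D3:**
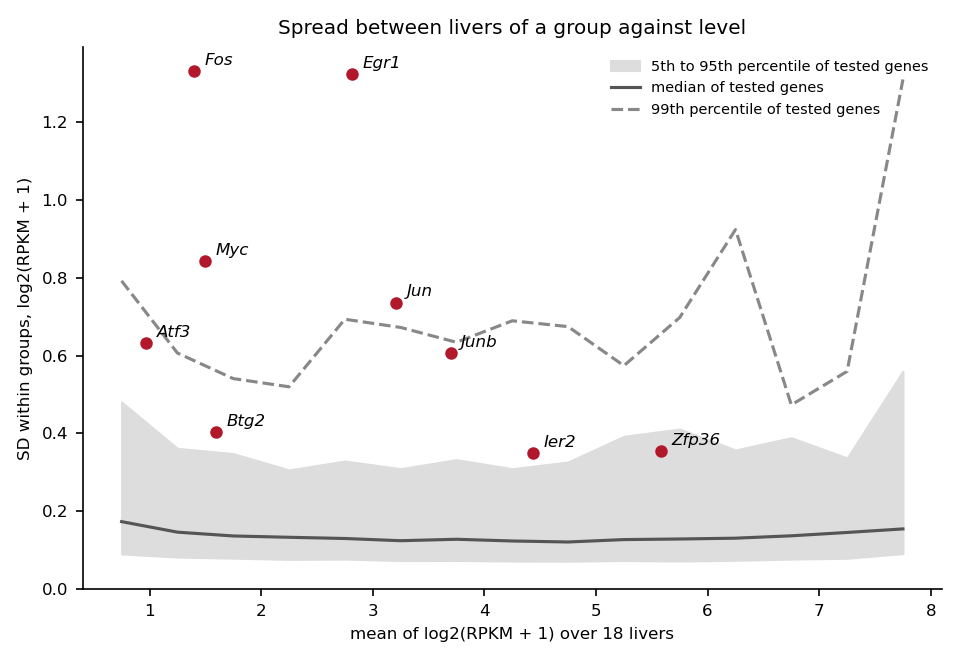
SD within groups of log2(RPKM + 1) against the mean over 18 livers for the 9 tested genes (red), with the median, the 5th to 95th percentile and the 99th percentile of all 10507 tested genes in steps of 0.5 of the mean. Fos (1.33) and Egr1 (1.32) lie above every line drawn, and Zfp36 (0.354) lies inside the grey band.

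As facts of the whole series, RPKM sums went from 692303 to 806937 over the livers, and from 14512 to 14982 genes were above 0. Read numbers are not beside the values, so the depth is unknown. In 11 sparsely read genes the step that 1 read is worth had mean ratios between livers from 0.960 to 1.03. These genes were kept because their values lay near whole multiples of a step common to all livers. Ratios near 1 were thus favoured by the choice, and equal depth cannot be read from them. Hepatocyte markers summed to between 36220 and 60020 RPKM, with 4 of 5 in the table. Con 3 lay between Con 1 and Con 2 for 98.6% of the 141 genes by which it was compared, and AOS 3 likewise for 97.1% of 136, close to weighted means of the others. These groups may thus hold fewer than 3 separate samples. The 141 and 136 genes were those at least 1 apart on the log2 scale between the other livers of the group. By the same measure Con-FMT 3, the next highest, lay between for 75.5% of 94 genes. Among the 10 genes Con 3 lay between the others for 8 and AOS 3 for 5, while Con-FMT 3 did for 9.

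None of the 9 tested genes passed the test in any comparison (limma on log2(RPKM + 1), Benjamini-Hochberg adjusted p under 0.05), where differences are first group minus second. In HFD/Con, which asks for the effect of the diet, 0 of 9 were called beside 0.381% of all genes. At an unadjusted p under 0.05 also 0 of 9 passed, beside 15.4% of all genes. Of the 9 genes 8 were higher in HFD, with a median log2 fold change of 0.51 beside 0.05 over all genes, and none was without overlap between the groups beside 18.5% of all genes. The range was from -0.05 for Myc to 1.01 for Fos (SE 0.95). When the third HFD and second Con-FMT livers were left out, 6 of 9 were higher, with a median of 0.01, and Fos was at -0.29 (SE 0.31). The excess of HFD thus came with 1 liver.

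In A10-FMT/HFD, which asks what the microbiota of AOS donors changed on the diet, 0 of 9 were called beside 6.60% of all genes, and 1 of 9 passed unadjusted beside 24.5%. This was Egr1, with mean levels of 1.73 and 19.5 RPKM and a log2 fold change of -2.37 (SE 0.94, adjusted p = 0.136 by limma). Without both livers it was -1.58 (SE 0.52, adjusted p = 0.121 by limma), and without the third HFD liver alone the adjusted p was 0.420 by limma. Egr1 was also the only gene of the set in this comparison whose groups did not overlap, beside 23.4% of all genes. The median of the set was -0.44 with all livers and -0.03 without the pair. Of the 9 genes 6 were lower with all livers and 5 without the pair. Fos stood at -1.62 (SE 0.95) and at -0.31 (SE 0.31) in turn.

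Con-FMT/HFD asks what the transfer itself changed and A10-FMT/Con-FMT what the treatment of the donors changed. In Con-FMT/HFD 0 of 9 were called beside 0.00952% of all genes, 0 of 9 passed unadjusted beside 6.63%, and none was without overlap beside 10.1%. Both groups held 1 liver with high Fos, and its log2 fold change was -0.09 (SE 0.95). Egr1 was at -0.74 (SE 0.94) with all livers and at -1.41 (SE 0.57, unadjusted p = 0.0275, adjusted p = 0.928 by limma) without the third HFD and second Con-FMT livers, when it alone passed unadjusted. In A10-FMT/Con-FMT 0 of 9 were called beside 1.68%, 0 of 9 passed unadjusted beside 16.4%, and none was without overlap beside 18.3%. Here 7 of 9 were lower in A10-FMT, with Egr1 at -1.63 (SE 0.94), Fos at -1.52 (SE 0.95) and Jun at -1.11 (SE 0.53, adjusted p = 0.305 by limma). Without both livers 4 of 9 were lower, and Fos was at -0.27 (SE 0.31) and Egr1 at -0.17 (SE 0.52).

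In AOS/Con, the oligosaccharide without high fat diet, 0 of 9 were called beside 0.133% of all genes, and 0 of 9 passed unadjusted beside 15.5%. Groups without overlap were found for 3 of 9, Fos and Egr1 lower and Junb higher in AOS, beside 24.7% of all genes. The log2 fold change was -0.66 (SE 0.95) for Fos, -0.83 (SE 0.94) for Egr1 and 0.30 (SE 0.44) for Junb, with the spread estimated over all 6 groups. When only the 6 livers compared were fitted, Egr1 was called, with an adjusted p of 0.0352 by limma, beside 0.390% of all genes, a fit that rests on the narrow spreads of groups in which Con 3 and AOS 3 lay near means of the others.

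In HFD+AOS/HFD 0 of 9 were called beside 8.75% of all genes, and 1 of 9 passed unadjusted beside 26.2%. This was Zfp36, with means of 72.5 and 46.2 RPKM and a log2 fold change of 0.67 (SE 0.26, adjusted p = 0.112 by limma), and it alone was without overlap, beside 27.2% of all genes. Without the third HFD and second Con-FMT livers it was called, at 0.92 (SE 0.22, adjusted p = 0.0402 by limma), beside 3.35% of all genes. Junb then stood at 1.11 (SE 0.34, adjusted p = 0.0886) and Jun at 0.75 (SE 0.34, adjusted p = 0.233 by limma), and 8 of 9 were higher in HFD+AOS. With all livers 5 of 9 were. Fos turned from -0.87 (SE 0.95) to 0.44 (SE 0.31). As the third HFD liver was left out for its high values, the differences of genes high in it rise by construction.

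Whether AOS acted differently on the 2 diets was tested by the difference of its 2 effects, called for 0 of 9 genes beside 0.504%, and 0 of 9 passed unadjusted beside 14.7%. The median of the set was 0.40, with 6 of 9 above 0. Without the third HFD and second Con-FMT livers it was 0.80, with 8 of 9 above 0, and Zfp36, Jun and Fos passed unadjusted, with adjusted p from 0.313 to 0.329 by limma. Any difference among the 6 groups was called for 0 of 9 beside 14.8% of all genes, and 1 of 9, Zfp36, passed unadjusted beside 32.6% (adjusted p = 0.1003 by limma). Without the pair of livers Zfp36 (adjusted p = 0.0287) and Egr1 (adjusted p = 0.0436 by limma) were called, beside 10.5% of all genes. As the high values were in these livers, their removal lowers the estimate of the spread by construction. It also lowers the HFD and Con-FMT means of the genes high in them, which shifts the differences from these groups. The third HFD+AOS liver, with 6 genes at least 2-fold above the median of the other livers, was kept. A10-FMT, Con-FMT and HFD+AOS share the HFD livers as their reference, so these comparisons are not independent. Clock genes moved in the same comparisons, with 10 of 12 called in HFD+AOS/HFD and 11 of 12 in A10-FMT/HFD, beside 8.75% and 6.60% of all genes. In HFD+AOS/HFD 4 of 7 heat-shock genes were also called lower. The part of the clock and heat-shock genes in the levels of Egr1 and Zfp36 was not tested.

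**Figure D4:**
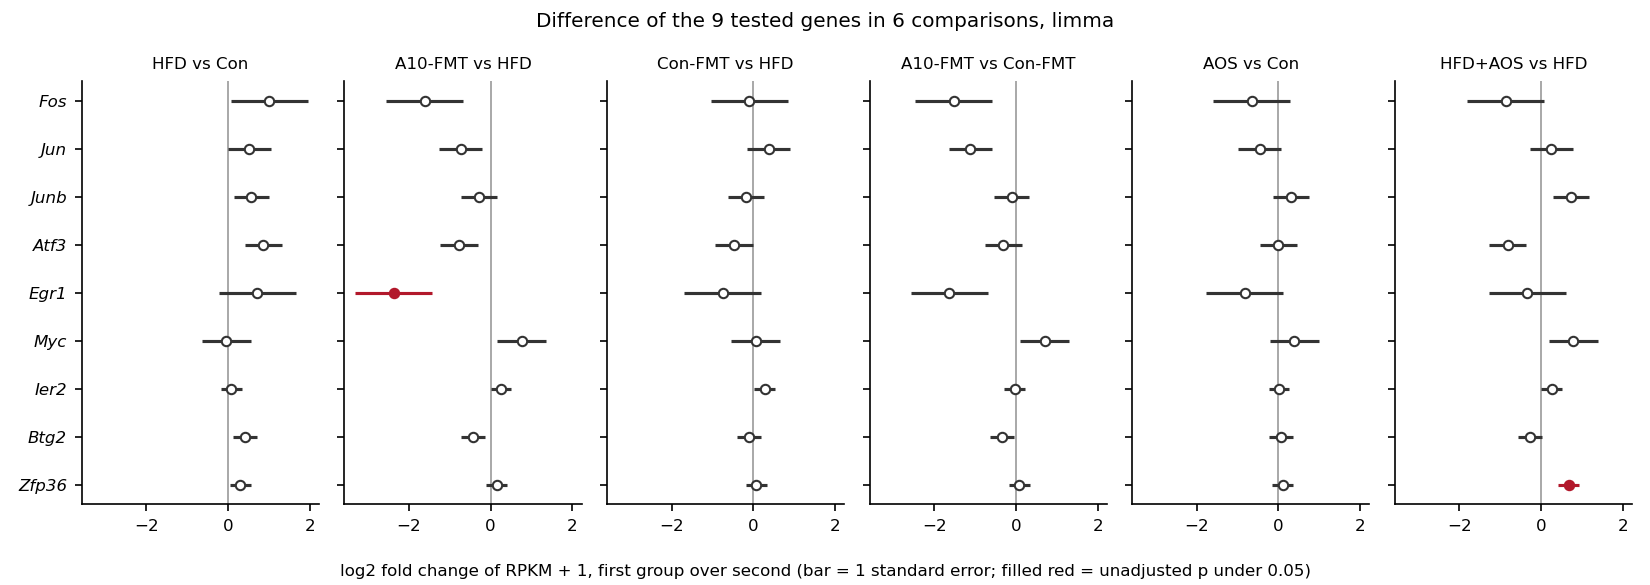
Log2 fold change of RPKM + 1 of the 9 tested genes in 6 comparisons, first group over second, with 1 standard error by limma over all 18 livers. Egr1 in A10-FMT/HFD (-2.37) and Zfp36 in HFD+AOS/HFD (0.67) are filled, for an unadjusted p under 0.05, and none passed after adjustment.

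Whether the genes followed each other from liver to liver was tested with Fos as the reference, over 16 livers without Con 3 and AOS 3. Over these 16 livers Btg2 (Pearson r = 0.92, permutation adjusted p = 0.00039) and Atf3 (r = 0.91, permutation adjusted p = 0.00108) passed. Jun, Egr1, Ier3 and Junb also did by r, and Ier2, Zfp36 and Myc did not. As the third HFD and second Con-FMT livers form a cluster of their own in Fos, the correlations are read without them. Btg2 (r = 0.56, permutation adjusted p = 0.0684) and Atf3 (r = 0.45, permutation adjusted p = 0.146) then did not pass. Over the remaining 14 livers, of 9 genes correlated with Fos, Jun (Pearson r = 0.81, permutation adjusted p = 0.00513), Ier3 (r = 0.75, permutation adjusted p = 0.0267) and Egr1 (r = 0.66, permutation adjusted p = 0.0267) passed. By rank Egr1 (Spearman rho = 0.78, permutation adjusted p = 0.0118) and Jun (rho = 0.70, permutation adjusted p = 0.0326) did, and Ier3 did not (rho = 0.49, permutation adjusted p = 0.170). Myc had r = 0.44 and rho = 0.05 (permutation adjusted p = 0.146 and 0.975). The tests were two-sided. The raw permutation p was 0.00057 for Jun, 0.00819 for Egr1 and 0.00891 for Ier3 by Pearson r, and 0.00131 for Egr1 and 0.00724 for Jun by rank. Groups were not taken out of these values, so part of a correlation may be a difference between groups. Centred on group means, the 16 livers, the pair included, were tested by 5184 permutations within groups. By Pearson r Jun (r = 0.90, permutation adjusted p = 0.0174) and Egr1 (r = 0.87, permutation adjusted p = 0.0226) then passed. Ier2, Ier3, Btg2, Zfp36 and Atf3 also did, and Junb and Myc did not. By rank Jun, Egr1, Btg2 and Zfp36 passed and the others did not. Centring was not run without the pair.

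**Figure D5:**
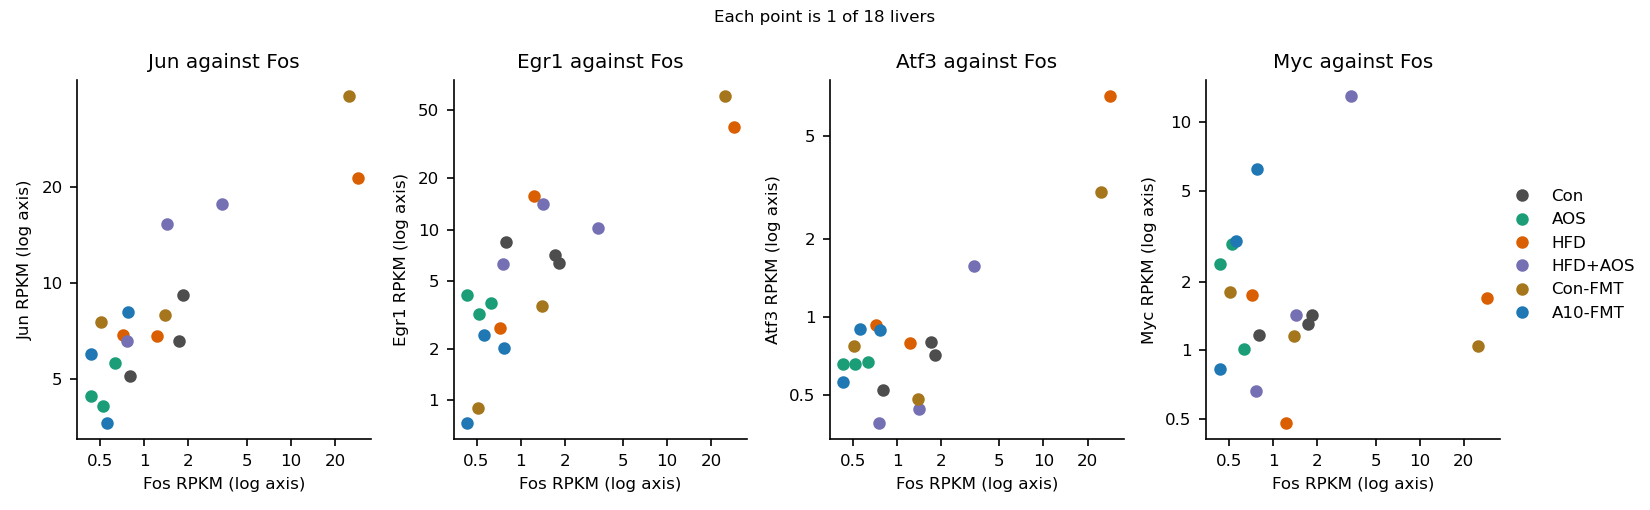
RPKM of Jun, Egr1, Atf3 and Myc against Fos on log axes, with 1 point for each of 18 livers coloured by group. The pair of points at the right is the third HFD liver (28.6 RPKM of Fos) and the second Con-FMT liver (24.9 RPKM), which are also highest for Jun and Egr1 and near the median for Myc.

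The tested genes whose log2 values followed the mean of the set best over the 18 livers were Nr4a1 (Pearson r = 0.82), itself an immediate early nuclear receptor, then Rbm12 (0.80), Pcgf3 (0.73), Caap1 (0.72), Spg11 (0.71), Rhot1 (0.71), Tjp1 (0.70) and Rab3gap1 (0.70). Nr4a1 was at 0.54, 0.41 and 3.53 RPKM in HFD and at 0.86, 5.92 and 1.11 in Con-FMT, so that its high livers were those of Fos. Without these livers its r was 0.31 and that of Pcgf3 0.55. The others moved little, such as Pcgf3 from 5.01 to 6.81 RPKM. No p is given, since the genes were picked for their likeness.

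Further early genes and the signals upstream of them were read from lists. Of 22 early transcription factors 15 were tested, and called were 4 in HFD+AOS/HFD, 3 in A10-FMT/HFD, 1 in A10-FMT/Con-FMT and 0 in the other comparisons of 2 groups, beside 8.75%, 6.60% and 1.68% of all genes in turn. In HFD+AOS/HFD Crem, a CREB relative, fell by 0.81 on the log2 scale (SE 0.16, adjusted p = 0.00614 by limma). Its levels were 6.07, 4.72 and 5.80 RPKM against 9.07, 12.3 and 10.0, with no overlap. Maff, a small Maf factor, rose by 0.89 (SE 0.20, adjusted p = 0.0141 by limma), from 0.90, 1.37 and 2.02 to 3.28, 3.89 and 3.10 RPKM. Bhlhe40, a repressor that the clock also drives, rose by 1.01 (SE 0.27, adjusted p = 0.0297), and Ier5 fell by 0.49 (SE 0.13, adjusted p = 0.0287 by limma). In A10-FMT/HFD Bhlhe40 rose by 1.08, and Crem and Ier5 fell by 0.59 and 0.46. Maff rose by 0.88 in A10-FMT/Con-FMT. These genes thus moved in both directions, and their median log2 fold change was -0.02 in HFD+AOS/HFD and 0.01 in A10-FMT/HFD. In HFD+AOS/HFD 2 (Crem and Maff) were called without the third HFD and second Con-FMT livers, and in A10-FMT/HFD 0. Crem in HFD+AOS/HFD was called in every alternative (adjusted p from 0.00283 to 0.0338 by limma), and Maff in that comparison in all but the one without the second HFD+AOS liver (adjusted p = 0.0512 by limma). Bhlhe40 in HFD+AOS/HFD was not followed with single livers left out. Each of the other calls was lost without 1 or another liver of its comparison. The third HFD liver was among them for Bhlhe40 and Crem in A10-FMT/HFD and for Ier5 in both.

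Of 27 early feedback and signalling genes 22 were tested, and Btg1, a relative of Btg2, was the only one called in a comparison of 2 groups, beside 6.60% of all genes in A10-FMT/HFD and 8.75% in HFD+AOS/HFD. It fell by 0.77 in A10-FMT/HFD (SE 0.16, adjusted p = 0.0110 by limma) and by 0.61 in HFD+AOS/HFD (SE 0.16, adjusted p = 0.0329 by limma). Its levels were 10.9, 13.99 and 14.9 RPKM in HFD, 7.56, 6.46 and 7.88 in A10-FMT, and 8.54, 8.78 and 7.62 in HFD+AOS, the latter groups both below every HFD liver. It was called in A10-FMT/HFD and not in HFD+AOS/HFD without the third HFD and second Con-FMT livers. With 1 liver left out at a time, the call in A10-FMT/HFD was lost without the third HFD or the second A10-FMT liver, with an adjusted p up to 0.0611 by limma over the alternatives.

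Of 25 upstream kinases, receptors and factors all were tested, and 3 fell in HFD+AOS/HFD, beside 8.75% of all genes called. Egfr, the EGF receptor, fell by 0.81 (SE 0.15, adjusted p = 0.00387 by limma), from 136, 168 and 149 to 82.3, 90.0 and 84.7 RPKM. Mkl2, a partner of the serum response factor, fell by 0.45 (SE 0.09, adjusted p = 0.00903), and Il6st, the shared receptor of the interleukin 6 family, by 0.28 (SE 0.07, adjusted p = 0.0255 by limma). In A10-FMT/HFD Mkl2 fell by 0.39 and Il6st by 0.28, and in the other comparisons of 2 groups 0 of 25 were called. Without both livers Egfr and Mkl2 were called in HFD+AOS/HFD and Mkl2 in A10-FMT/HFD. Egfr (adjusted p from 0.00398 to 0.0232) and Mkl2 (0.00727 to 0.0385 by limma) in HFD+AOS/HFD were called in every alternative, while Il6st was not without the third HFD liver among others. Mkl2 in A10-FMT/HFD was not called without the second HFD, the first A10-FMT or the second A10-FMT liver.

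Of 16 partners and targets of Myc 15 were tested. Called were 4 in HFD+AOS/HFD, 1 in A10-FMT/HFD and 1 in A10-FMT/Con-FMT, beside 8.75%, 6.60% and 1.68% of all genes in turn. In HFD+AOS/HFD Mxi1, an antagonist of Myc, rose by 0.28 (SE 0.06, adjusted p = 0.00764 by limma), and Nop58 (by 0.70), Cad (by 0.43) and Nop56, genes of ribosome and nucleotide production, fell. Nop58 had an adjusted p of 0.0111 and Cad of 0.0347 by limma. Mxi1 also rose in A10-FMT/HFD, by 0.32 (SE 0.06, adjusted p = 0.00365 by limma), from 9.01, 8.62 and 8.83 to 11.4, 11.6 and 10.8 RPKM. In A10-FMT/Con-FMT Ldha, of lactate production, fell by 0.55 (SE 0.11, adjusted p = 0.0245 by limma). Myc itself was not called in these comparisons. Without both livers Mxi1, Cad and Nop58 were called in HFD+AOS/HFD and Mxi1 in A10-FMT/HFD, while 0 were in A10-FMT/Con-FMT. Mxi1 was called in both comparisons without any 1 liver, and Nop58 was not called without the third HFD liver (adjusted p = 0.0593 by limma). Cad was not called without the third HFD liver among others, nor Ldha without the second Con-FMT liver among others.

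Of 10 integrated stress response genes, to whose factors Atf3 belongs, 9 were tested. Called was 1 each in HFD+AOS/HFD, A10-FMT/HFD and A10-FMT/Con-FMT, beside 8.75%, 6.60% and 1.68% of all genes in turn. Atf5 fell by 0.80 in A10-FMT/HFD (SE 0.19, adjusted p = 0.0208 by limma) and by 0.88 in A10-FMT/Con-FMT (SE 0.19, adjusted p = 0.0285 by limma). Trib3, a target of the pathway, rose by 1.54 in HFD+AOS/HFD (SE 0.35, adjusted p = 0.0152 by limma), from 2.68, 3.31 and 1.34 to 6.76, 8.94 and 10.9 RPKM. Without both livers none of these calls remained. Trib3 was not called without the third HFD or the third HFD+AOS liver, and Atf5 in A10-FMT/HFD not without the first or second A10-FMT or the second HFD or the third HFD liver.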

How the data were processed

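Livers of 18 male ICR mice, 3 in each of 6 groups, were read by RNA sequencing on an Illumina HiSeq instrument. Per the study's methods, the authors used SOAPaligner 2.20 against reference genes and computed RPKM. This unit is taken here for the deposited values, a single table to 2 decimals. The submitters' processing notes instead name Bowtie 0.12.2 and mm10. Strandedness is not given in the sources used here, so reads of antisense transcripts cannot be told apart. Read counts are not beside the RPKM values, and the number of livers limits the precision. Where nothing says that livers came from separate litters or cages, p-values measure only the spread between them.

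Of 17109 genes with any value above 0, the 10507 that reached 1 RPKM in 3 or more livers were tested with limma 3.58.1 (R 4.3.3, lmFit, eBayes with trend, two-sided) on log2(RPKM + 1), with the mean of each of 6 groups and 1 estimate of the spread. Fold changes on this scale understate the change of low genes. P-values were adjusted by Benjamini-Hochberg over all genes tested, with a threshold of 0.05. Genes named beyond the 10 were the up to 3 with the smallest p in each list, the up to 3 called in each comparison, and the 8 most alike to the mean of the set. Correlations with Fos had 100000 permutations (scipy 1.17.1), adjusted over 9 genes. The alternatives were library medians set equal, a pseudocount of 0.1, no filter, only the groups compared, the replicate number as a block, leaving out Con 3 and AOS 3, leaving out each liver, and the study's cut-offs (0.001 and a log2 ratio of 1). Leaving out the third HFD and the second Con-FMT liver was added after the data were seen. The genes and lists were chosen with earlier results of these data known. The scripts were tested on simulated data.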

Additional observations from a re-analysis of the deposited data

Results flagged for a closer look

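The change with AOS was not the same on the high fat as on the regular diet for Btg1 and 7 of 12 clock genes. This was by the test of the difference itself (limma, adjusted p under 0.05), which called 0.504% of all genes. The clock genes were Arntl, Ciart, Clock, Dbp, Npas2, Per3 and Tef, of which the 5 named by the rule are given with values. The hour of day at which the livers were taken is not given in the sources used here. An effect of that hour cannot be told apart from that of AOS. Btg1, the relative of Btg2, was at 8.94, 11.3 and 9.84 RPKM in Con and 16.8, 13.6 and 15.6 in AOS, but at 10.9, 13.99 and 14.9 in HFD and 8.54, 8.78 and 7.62 in HFD+AOS. It was thus higher with AOS on the regular diet and lower with AOS on the high fat diet, without overlap in either. The difference was -1.17 on the log2 scale (adjusted p = 0.0314 by limma), and 11 of 18 alternatives lost this call.

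These 5 clock genes each kept the call in all 18 alternatives. The repressors and output genes Ciart (3.26, adjusted p = 5.11e-05), Dbp (5.45, adjusted p = 0.00137) and Per3 (2.48, adjusted p = 0.00144) had a more positive change with AOS on the high fat diet by limma. The activators Arntl (-2.70, adjusted p = 0.000698) and Npas2 (-1.81, adjusted p = 0.000698) had a more negative one. Dbp was at 112, 88.9 and 97.8 RPKM in HFD+AOS and at no more than 3.41 in Con, AOS and HFD.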

How the results depend on the processing

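Over the alternatives, 0 of the 9 immediate early genes were called in each comparison, with these exceptions. With only the groups compared, 1 (Egr1) was called in AOS/Con. Without the third HFD and second Con-FMT livers, 1 (Zfp36) was called in HFD+AOS/HFD and 2 (Egr1 and Zfp36) among the 6 groups. When each liver was left out in turn the counts stayed from 0 to 0 in every comparison. Egr1 in A10-FMT/HFD then went from -3.32 to -1.58 on the log2 scale and Zfp36 in HFD+AOS/HFD from 0.54 to 0.92. Without the third HFD liver alone Egr1 was at -1.58. Over all alternatives their adjusted p went from 0.0728 to 0.420 and from 0.0402 to 0.302 by limma. With the study's cut-offs 0 were called.

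The replicate numbers did not pair the livers, as the correlations of same-numbered deviations went from -0.177 to 0.225. With the replicate block 0 of 9 were called, and Egr1 in A10-FMT/HFD stayed at -2.37 (adjusted p = 0.164 by limma). With the 2 livers farthest in Fos left out, the genes correlated with Fos went from 6 to 3 by Pearson r and from 5 to 2 by Spearman rho. For Fos and Myc the Pearson r of 0.0133 turned to -0.001 with all 18 livers, and the rho of -0.0103 turned to 0.1368 when centred on group means and to 0.0484 without the 2 livers. The cause was not tested.

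Of 41 results on single genes past the threshold 16 were so in every alternative. Of their 563 alternatives 127 lost the call and 0 turned the direction. The losses were 75 when 1 liver was left out, 17 with only the groups compared, 14 without the third HFD and second Con-FMT livers, 12 without Con 3 and AOS 3, 8 with no filter and 1 with the block. Over all genes the number called went from 0 to 178 in HFD/Con (40 as reported), 78 to 1218 in A10-FMT/HFD (693), 1 to 13 in Con-FMT/HFD (1), 4 to 564 in A10-FMT/Con-FMT (177), 0 to 132 in AOS/Con (14) and 320 to 1287 in HFD+AOS/HFD (919).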

Other observations

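Heat-shock genes encode chaperones that are induced when proteins unfold. In HFD+AOS/HFD all 7 were lower, with a median log2 fold change of -1.40. Of them 4 were called, namely Hspb1, Hsp90aa1, Hsph1 and Hspa8, beside 8.75% of all genes. Hspb1 was at 12.3, 12.1 and 18.6 RPKM in HFD+AOS and at 30.9, 62.2 and 61.8 in HFD (log2 fold change -1.74, adjusted p = 0.00477 by limma). Hsp90aa1 fell by 1.40 (adjusted p = 0.0133) and Hsph1 stood at -1.41 (adjusted p = 0.0142 by limma). In the other comparisons of 2 groups none was called. Hspb1 was called in every alternative, and it alone was called without the third HFD and second Con-FMT livers. HFD+AOS had at the same time the highest group mean of Zfp36 and Junb.

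In HFD/Con no gene of the early factor, feedback, upstream, stress, Myc, heat-shock or clock lists was called by limma, beside 0.381% of all genes. Of the 25 upstream kinases, receptors and factors 22 were higher in HFD, with a median log2 fold change of 0.15 beside 0.05 over all genes. In AOS/Con, against the same Con livers, also 22 were higher, with a median of 0.11 beside 0.07. These counts were not set against the share of all genes that were higher. Con 1 had the lowest median over tested genes of any liver (2.89 on the log2 scale, where the median of the livers was 2.99). Of the 12 clock genes 0 were called in Con-FMT/HFD, 1 in AOS/Con (Nr1d2, 1.39, adjusted p = 0.0221 by limma) and 7 in A10-FMT/Con-FMT. The shares of all genes called were 0.00952%, 0.133% and 1.68% in turn.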
